A study of Mus musculus with 2 samples.

Results

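The genes of the tumor necrosis factor (TNF) family were examined on short-oligonucleotide arrays of G1E cells, a mouse erythroid progenitor line without GATA-1. The family was taken by gene symbol, as every gene named Tnfrsf or Tnfsf plus Tnf, Lta, Ltb, Ltbr, Fas, Fasl, Cd27, Cd40 and Cd70. This gave 36 of the 18193 genes that had a probe set (a group of probes read as 1 value) assigned to them alone, and 58 of 34945 such probe sets. They comprised 12 ligands, 23 receptors and Tnfsf13os, a non-coding gene antisense to the Tnfsf13 locus that shares only the symbol. Both groups of cells carried ER-GATA-1(V205G), a GATA-1 with impaired binding of the cofactor FOG-1, joined to an estrogen receptor domain and activated by the hormone. One group received 1 µM estradiol for 24 h, and the other was the untreated control, taken at 0 h. Each was represented by 1 array, so no difference below has a replicate check or a p-value. The mutant's activity, estradiol itself and the time in culture cannot be told apart.

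TNF family ligands are mostly trimers made as membrane proteins, from which several are shed. Their receptors fall into those with a cytoplasmic death domain, which can lead to caspase activation, those that bind TRAF adaptors and signal mainly to NF-κB and kinases, and decoys that bind a ligand without passing on a death signal. In human erythroblast cultures, ligands of death receptors are known to restrain maturation, in part through caspase cleavage of GATA-1.

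Most of the family was dim in these cells with and without estradiol, and few of its measurable members differed. Of the 36 genes, 13 (36.1%) reached the floor on both arrays, against 56.3% of all genes, and 19 (52.8%) were below it on both, against 37.2% of all genes. The floor was a signal of 95.2, the 50th percentile of all signals, and a gene was read from its probe set with the highest mean signal. Of the 13 measured genes, 1 was at least 2-fold lower after estradiol, Tnfrsf13b, and 0 were at least 2-fold higher. Over all measured genes these shares were 1.1% lower and 2.04% higher, and among those in the lowest tertile of signal, which held 12 of the 13 members, they were 1.03% and 1.65%. A single gene is too few to set a share of the family against these. A further 4 members reached the floor with estradiol only, of which Tnfrsf11a was at least 2-fold higher. Bounds of at least 2-fold were reached upward by 3.36% and downward by 2.86% of the genes at the floor on 1 array alone. In a bulk sample a lower share of cells of a type and less RNA per cell cannot be told apart.

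The family's median log2 ratio of estradiol over untreated was 0.07, beside 0.00 over all measured genes, and 11 of the 13 (84.6%) lay within 1.5-fold, beside 88.0% of all. Of the 13 ratios 9 were above 0, beside 5129 of 10240 over all measured genes, but only 6 were under a common median, quantile normalization or loess. The family median then lay between -0.05 and -0.03, beside all-gene medians of -0.11, -0.02 and -0.01 in that order. With dimmer members let in, 19 of 28 were above 0 (median 0.25) at a floor at the 30th percentile, and 25 of 36 (median 0.13) with no floor. The all-gene median was 0.02 in both of those settings. The members' direction as a group was therefore not settled by these arrays. The spread used to read single ratios was the SD between probe sets of the same gene, which was 0.31 in the lowest tertile and 0.25 in the middle tertile of signal. Beyond 2 of these SDs lay 2 of the 13 members (Tnfrsf13b and Tnfrsf22), beside 17.7% of all measured genes. This spread covers probe noise and transcript forms and leaves out differences between cultures.

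**Figure D1:**
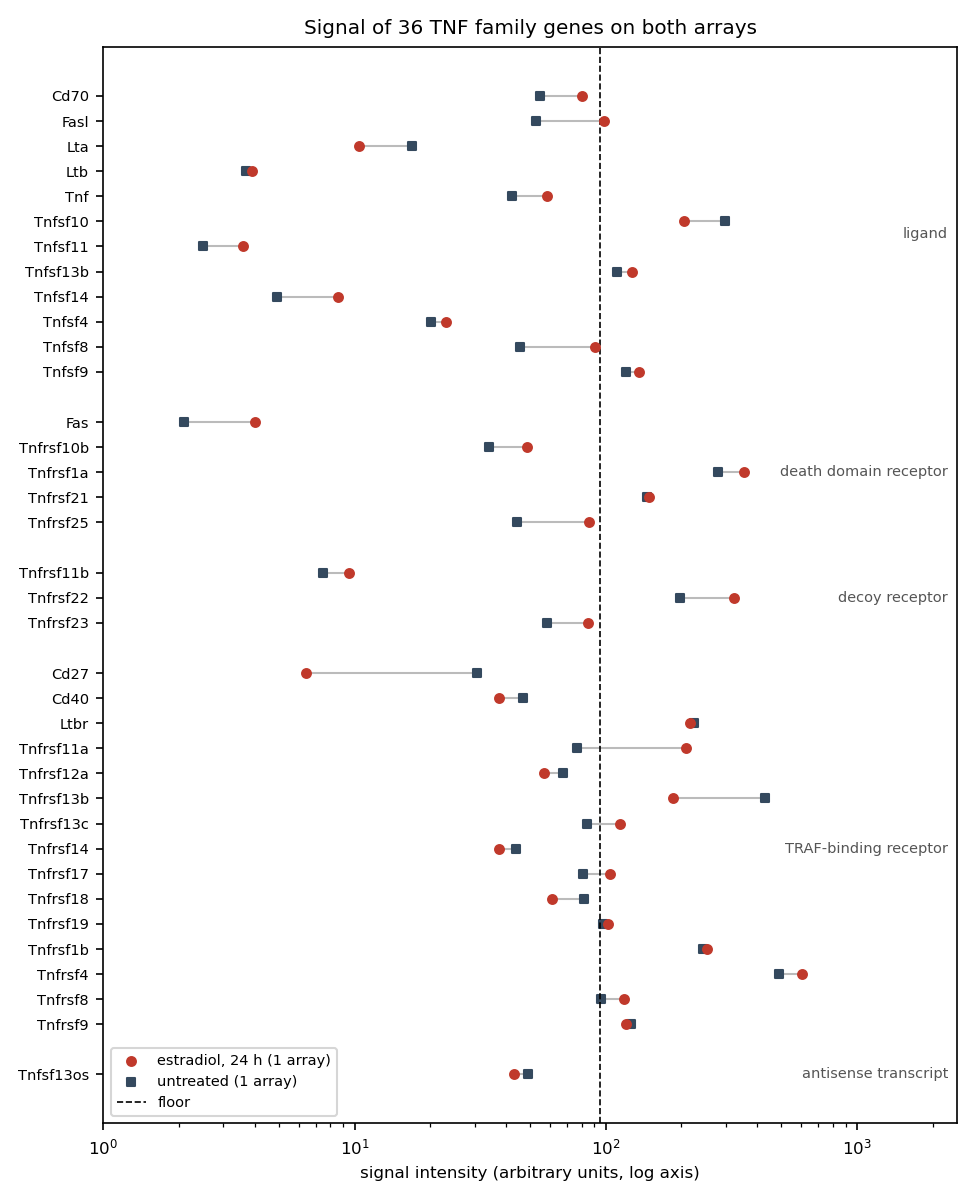
Signal of each of the 36 genes after estradiol (circles) and untreated (squares), 1 array each, on a log axis, grouped by role. The dashed line is the floor of 95.2: 19 genes lie left of it on both arrays, 13 lie right of it on both, and 4 cross it.

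Promoter sequences are shown for the 2 receptors whose ratios passed 2-fold and for Tnfsf13b, whose product BAFF is a ligand of the Tnfrsf13b receptor. Each run is the 250 bases before a gene's start on its own strand, from RefSeq on build GRCm38.p6. Of 2 overlapping windows of Tnfsf13b, the upstream one is shown. Capitals mark the letters GATAA, or TTATC where they lie on the opposite strand, which form the core that GATA factors bind.

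Tnfrsf13b, chr11:61126505-61126754, plus strand: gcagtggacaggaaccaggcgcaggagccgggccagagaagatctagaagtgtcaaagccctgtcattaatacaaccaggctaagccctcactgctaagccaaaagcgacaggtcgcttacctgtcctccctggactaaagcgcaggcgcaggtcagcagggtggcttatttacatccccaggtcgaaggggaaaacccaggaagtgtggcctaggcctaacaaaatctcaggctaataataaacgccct
Tnfrsf11a, chr1:105780473-105780722, plus strand: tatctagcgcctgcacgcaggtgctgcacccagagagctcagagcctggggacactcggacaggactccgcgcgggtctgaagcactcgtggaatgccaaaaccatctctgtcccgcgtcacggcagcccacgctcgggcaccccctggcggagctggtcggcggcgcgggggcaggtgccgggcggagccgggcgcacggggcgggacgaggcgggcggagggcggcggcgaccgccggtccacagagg
Tnfsf13b, chr8:10006217-10006466, plus strand: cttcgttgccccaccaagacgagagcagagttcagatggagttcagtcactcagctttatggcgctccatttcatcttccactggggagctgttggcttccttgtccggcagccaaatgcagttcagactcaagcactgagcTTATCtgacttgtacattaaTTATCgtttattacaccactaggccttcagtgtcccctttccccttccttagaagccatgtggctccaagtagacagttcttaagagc

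The letters were in neither receptor window. The Tnfsf13b window held 2 matches, both TTATC, which began 108 and 88 bases before the start. Of the 36 genes, 28 matched the promoter table, with 32 windows, of which 3 (9.38%) held the letters, beside 22.6% of 32851 windows of all genes. The 3 windows belonged to Tnfsf13b (2 windows) and Tnfrsf9 (1 window). A match is a string of letters and not a binding site, and its absence here says nothing of sites elsewhere.

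Tnfrsf13b, which encodes TACI, the receptor for BAFF and APRIL best known from B cells, was the family member that was lower. Its only probe set had a signal of 185 after estradiol and 431 untreated. Both values were above the floor, and the estradiol value was 2.33-fold lower, a log2 ratio of -1.22 with 2 SD of 0.61. The ratio stayed past 2-fold under the alternative scalings, with values between -1.33 and -1.22. When the floor was raised to the 70th percentile, the estradiol value became a bound, and the ratio shrank to -0.44.

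The other genes of the BAFF system did not show a ratio of that size, but a 2-fold drop could not be measured for any of them. Their untreated signals were too near the floor of 95.2, or below it. Tnfsf13b, the BAFF gene, had a signal of 127 with estradiol and 111 untreated (log2 ratio 0.20). Its other probe sets were below the floor on both arrays, at 35.4 and 2.5 with estradiol and 58.4 and 2.0 untreated. Tnfrsf13c, the gene of the BAFF-specific receptor, read 114 with estradiol and 84.1 untreated, which gives a bound of 0.26. Tnfrsf17, which encodes the plasma cell receptor BCMA, read 104 with estradiol and 81.3 untreated, a bound of 0.12. Both of these receptor genes were below the floor untreated, so only an upward crossing could be seen, and each crossed it by a small margin.

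None of the measured B cell markers was lower beside Tnfrsf13b, but a 2-fold drop could not be measured for any of them. Of 6 on the array, Ms4a1, Pax5 and Blk were measured, at log2 ratios of 0.21, 0.56 and 0.77. Their untreated signals were 136, 138 and 104, from which a 2-fold drop would end below the floor. Cd79a, Cd79b and Cr2 were below the floor on both arrays. Cd79a read 45.3 with estradiol and 78.4 untreated, and Cr2 read 52.0 with estradiol and 34.2 untreated. The summed signal of the 6 was 639 with estradiol and 496 untreated, none of them was at 0, and Cd79b was nearest to it, as it read 2.20 with estradiol and 5.20 untreated. The nearest coding genes to Tnfrsf13b on either side did not pass 2-fold: Kcnj12 was below the floor on both arrays, and Usp22 had a log2 ratio of -0.22. One gene further out, Map2k3, a MAP kinase kinase gene, read 2354 with estradiol and 3998 untreated (-0.76), and Aldh3a1 was below the floor.

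Tnfrsf11a, which encodes RANK, the receptor that drives osteoclast formation when RANK ligand binds it, went the other way. Its higher-signal probe set read 208 with estradiol and 76.5 untreated. The untreated value was below the floor, so the change is a bound of at least 2.19-fold higher (log2 ratio 1.13). When the floor was lowered to the 30th percentile, both values were measured and the log2 ratio was 1.44. The gene's other probe set stayed below the floor on both arrays, at 51.1 with estradiol and 49.997 untreated, so the higher signal rests on 1 probe set. Its coding neighbours Pign, Relch, Zcchc2 and Phlpp1 had log2 ratios from -0.39 to 0.00. Tnfsf11, the RANK ligand gene, read 3.60 with estradiol and 2.5 untreated, and Tnfrsf11b, the gene of the decoy osteoprotegerin, read 9.50 with estradiol and 7.50 untreated, all well below the floor.

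**Figure D2:**
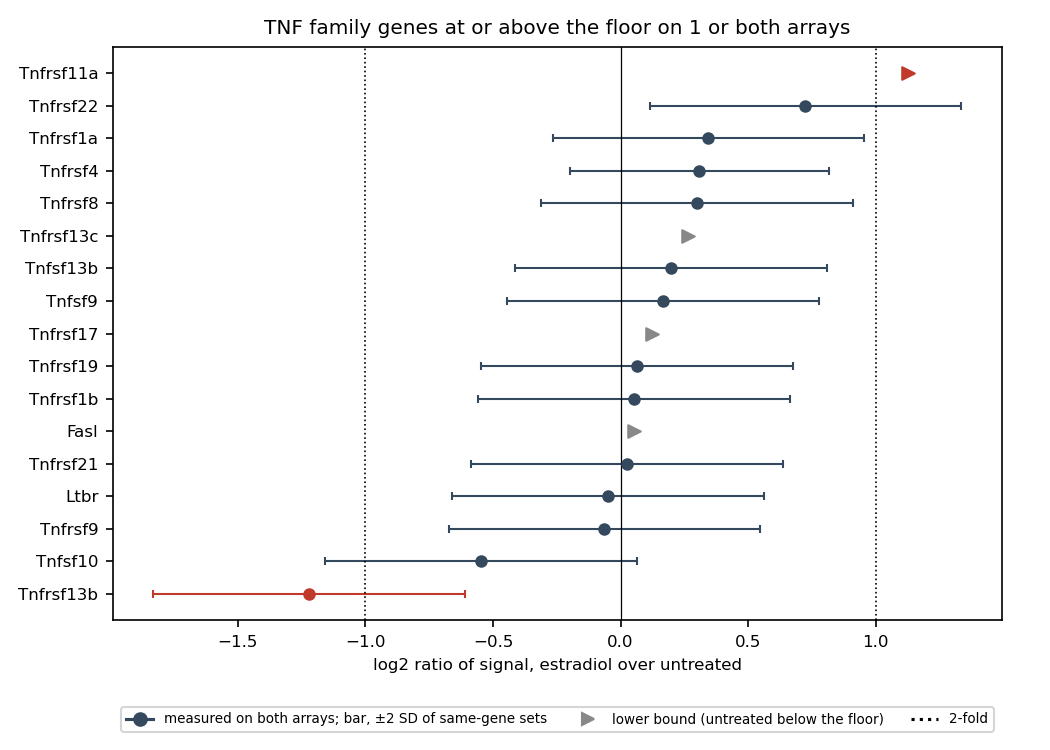
Log2 ratio of estradiol over untreated for the 17 family genes at or above the floor on at least 1 array. Circles with bars are the 13 measured genes with 2 SD between same-gene probe sets, triangles are the 4 bounds, and dotted lines mark 2-fold, which Tnfrsf13b (-1.22) and Tnfrsf11a (at least 1.13) passed.

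Among death domain receptors, Tnfrsf1a and Tnfrsf21 were measured and 3 of 5 were below the floor. Tnfrsf1a, the main signalling receptor for TNF, read 356 with estradiol and 280.1 untreated, a log2 ratio of 0.34 that lay within 2 SD. Tnfrsf21, which encodes a death receptor known from neurons and lymphocytes, read 149 with estradiol and 146 untreated (0.03). Fas had 4.0 with estradiol and 2.10 untreated, the TRAIL receptor gene Tnfrsf10b had 48.4 with estradiol and 34.4 untreated, and Tnfrsf25 had 85.4 with estradiol and 44.1 untreated. None of these 3 was given a ratio, since neither array reached the floor.

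The TRAIL system gave the next largest ratios, in opposite directions. Tnfsf10, the TRAIL gene, whose product can kill cells through death receptors, read 204 with estradiol and 298 untreated, a log2 ratio of -0.55 against 2 SD of 0.61. A second probe set read 21.4 with estradiol and 104 untreated, which is a bound of -0.13, and another read 7.70 with estradiol and 13.7 untreated, below the floor on both arrays. Both Tnfsf10 probe sets that reached the floor were lower with estradiol, and neither gave a 2-fold difference above it. Tnfrsf22, which encodes a mouse decoy receptor for TRAIL, read 325 with estradiol and 197 untreated (1.65-fold higher, log2 ratio 0.72). Its second probe set read 98.8 with estradiol and 73.9 untreated, a bound of 0.05, and the last was near 0, where it read 4.90 with estradiol and 4.10 untreated. The neighbouring decoy gene Tnfrsf23 read 85.0 with estradiol and 58.1 untreated, below the floor, and a probe set shared by the pair read 11.0 with estradiol and 44.5 untreated. Tnfrsf22 and Tnfrsf23 are close copies, so their probes may read both.

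The TRAF-binding receptors held most of the measurable family, with 7 of 15 measured. Tnfrsf4, the OX40 gene, a costimulatory receptor of T cells, read 606 with estradiol and 489 untreated (log2 ratio 0.31). Tnfrsf1b, the gene of the other TNF receptor, read 252 with estradiol and 243 untreated (0.05), and its second probe set read 126 with estradiol and 90.7 untreated, a bound of 0.41. Ltbr, the lymphotoxin beta receptor gene, read 217 with estradiol and 224 untreated (-0.05). These 3 ratios lay within 2 SD. Tnfrsf8, Tnfrsf9 and Tnfrsf19 were close to the floor on both arrays, where a 2-fold drop could not be measured: Tnfrsf8 read 118 with estradiol and 95.7 untreated, Tnfrsf9 read 120.1 with estradiol and 125 untreated, and Tnfrsf19 read 102 with estradiol and 97.6 untreated. Tnfrsf8 and Tnfrsf9 encode activation receptors of lymphocytes, and Tnfrsf19 a receptor known from the nervous system and hair follicles.

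The remaining TRAF-binding receptors were below the floor on both arrays. Cd40, the B cell and antigen-presenting cell receptor gene, read 37.7 with estradiol and 46.8 untreated, and Cd27, a lymphocyte costimulatory receptor gene, read 6.40 with estradiol and 30.6 untreated. Tnfrsf12a, the receptor gene for TWEAK, read 56.5 with estradiol and 67.3 untreated, Tnfrsf14 read 37.7 with estradiol and 43.7 untreated, and Tnfrsf18 read 61.2 with estradiol and 81.5 untreated. Signals this low have no order, so these differences were not read as changes.

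Ligand genes were seldom measured, at 3 of 12. Beside Tnfsf10 and Tnfsf13b, only Tnfsf9, which encodes the ligand of the Tnfrsf9 receptor, was at the floor on both arrays, at 135 with estradiol and 121 untreated (log2 ratio 0.16). Fasl, the Fas ligand gene, reached it with estradiol alone, at 98.7 against 52.5 untreated, though not under a common median, quantile normalization or loess, and its other probe set read 26.7 with estradiol and 19.999 untreated. Tnf itself read 58.4 with estradiol and 42.3 untreated, below the floor. Of its neighbours, the lymphotoxin genes, Lta read 10.4 with estradiol and 16.9 untreated, and Ltb read 3.90 with estradiol and 3.70 untreated. The other costimulatory ligand genes were below the floor as well. Cd70 read 80.5 with estradiol and 54.6 untreated, Tnfsf4 read 23.2 with estradiol and 20.1 untreated, Tnfsf8 read 90.4 with estradiol and 45.7 untreated, and Tnfsf14 read 8.60 with estradiol and 4.90 untreated. Tnfsf13os, the antisense gene, read 42.9 with estradiol and 49.0 untreated.

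Set out as ligand and receptor pairs, the data held receptors more often than their ligands. Of 20 known pairs among these genes, 3 had both partners measured: Tnfsf9 with Tnfrsf9, Tnfsf10 with its decoy Tnfrsf22, and Tnfsf13b with Tnfrsf13b. In 8 pairs only the receptor was measured, as for TNF and lymphotoxin with Tnfrsf1a, Tnfrsf1b and Ltbr, and OX40 and CD30 with their ligands. In 4 only the ligand was measured, including Tnfsf10 with the death receptor gene Tnfrsf10b, and in 5 neither was. The signals are those of probe sets and do not compare amounts of a ligand with amounts of its receptor.

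Probe sets of the same gene could seldom be used to check one another. Of the 36 genes 16 had several probe sets, yet none had more than 1 measured on both arrays. All 58 probe sets together gave 13 measured (22.4%), beside 52% of all assigned probe sets. A further 3 probe sets carried several family symbols (Tnfsf12 and Tnfsf13, or Tnfrsf22 and Tnfrsf23) and were below the floor on both arrays. The floor also limits what could be called. Of the 13 measured members, 6 had an untreated signal under 190.4, from which a 2-fold drop would end below the floor, and 7 had more. Many members lie in gene clusters, with 17 of the 35 that matched the RefSeq gene table within 2 coding genes of another member, as for Cd27, Ltbr and Tnfrsf1a or Lta, Tnf and Ltb. The measured neighbours Ltbr and Tnfrsf1a had log2 ratios of -0.05 and 0.34, and Tnfrsf1b and Tnfrsf8 of 0.05 and 0.30.

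**Figure D3:**
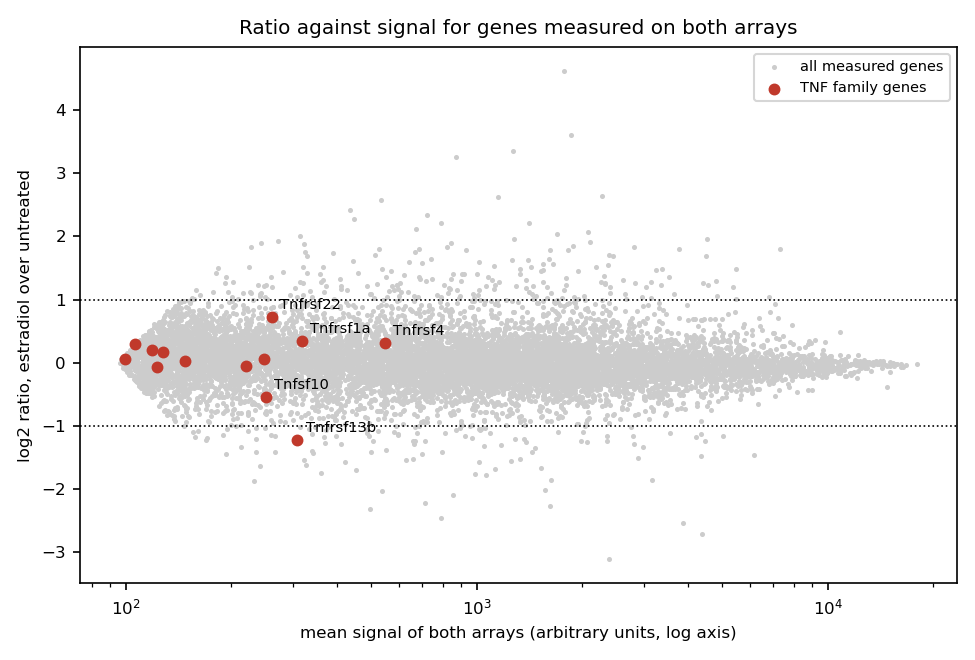
Log2 ratio of estradiol over untreated against mean signal (log axis) for all 10240 measured genes (grey) and the 13 measured family genes (red). The family sits at the dim end, with Tnfrsf13b (-1.22) past the dotted 2-fold line and Tnfrsf22 (0.72) and Tnfsf10 (-0.55) next.

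The machinery downstream of the receptors was measured more often than the receptors. Of 20 adaptor and complex genes with a probe set of their own, 16 were measured and 0 passed 2-fold, beside 3.14% of all measured genes, and 13 of the 16 lay within 1.5-fold, beside 88.0% of all. Their median log2 ratio was -0.09, and -0.20 under a common median, where all measured genes had -0.11. That all-gene value also stands beside the common median values of the lists below. Traf4, a TRAF gene, had 0.70, though its other probe set had 0.02. Cradd, a death domain adaptor gene, had 0.68. Tradd, the adaptor of the Tnfrsf1a receptor, read 337 with estradiol and 515 untreated (-0.61), and its other probe sets gave -0.43 and a bound of 0.22. Rbck1, a subunit gene of the linear ubiquitin ligase, read 2346 with estradiol and 2634 untreated (-0.17). Casp8, the apical caspase of death receptors, was below the floor, where it read 75.9 with estradiol and 67.5 untreated, as were Traf1, Ripk3 and Mlkl. Traf3 and Ripk1 were not analysed here.

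Of 22 NF-κB genes 18 were measured and 0 passed 2-fold, beside 3.14% of all measured genes. Of the 18, 17 lay within 1.5-fold, beside 88.0% of all. The median log2 ratio was 0.01, and it was below 0 under a common median (-0.11), quantile normalization (-0.03) and loess (-0.02). Tnip2, a binding partner of the A20 deubiquitinase, had 0.61. Nfkbiz, an atypical inhibitor gene, had -0.51, with -0.03 on its other measured probe set. Ikbkg, the regulatory subunit gene of the IκB kinase, had -0.51, with -0.42 to -0.07 on 5 others. Tab2, an adaptor of the TAK1 kinase, read 3003 with estradiol and 2600.2 untreated (0.21). Chuk and Nfkb1 were not analysed here.

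All 13 death effector genes with a probe set were measured, and 0 passed 2-fold, beside 3.14% of all measured genes. Their median log2 ratio was -0.04, and -0.15 under a common median. Bid, which links death receptors to mitochondria, read 2017 with estradiol and 3358 untreated (-0.74), with -1.07 and -0.10 on its other probe sets. Dffb, a nuclease gene of DNA fragmentation, had -0.47 on both of its probe sets. Casp6, an effector caspase gene, had 0.45, and Cycs, the cytochrome c gene, 0.03.

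Of the 8 genes for shedding and processing of ligands and receptors, 7 were measured and 1 was at least 2-fold higher. Over all measured genes 2.04% were. Furin, a proprotein convertase that cuts several family ligands, read 1986 with estradiol and 959 untreated (2.07-fold higher, log2 ratio 1.05) on its only probe set. It fell short of 2-fold, at 0.94, under scaling to a common median. Rhbdf1, a partner of the TNF-releasing protease, had 0.64, and the gene of that protease, Adam17, had -0.09. Another protease gene, Adam10, had 0.19, and Sppl2b had -0.21. The list median was 0.14, and between 0.02 and 0.03 under a common median, quantile normalization or loess.

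Genes that TNF is known to induce through NF-κB went both ways. Of 21, 12 were measured and 2 passed 2-fold, beside 3.14% of all measured genes. These 2 genes are too few to set a share of the list against that. Junb, an AP-1 subunit gene, was 2.28-fold higher, and Ier3, an early response gene with roles in survival, was 2.90-fold lower. Junb read 423 with estradiol and 185 untreated, and Ier3 read 165 with estradiol and 478 untreated, each on its only probe set. When the floor was raised to the 70th percentile, both became bounds, of 0.41 and -0.58. Il1b, the interleukin 1 beta gene, read 710.4 with estradiol and 433 untreated (0.72), and Tnfaip2 read 4985 with estradiol and 6628 untreated (-0.41), with -0.18 and a bound of 0.68 on its other probe sets. The median log2 ratio of the list was 0.29, with 9 of 12 above 0, and under a common median it was 0.17, with 7 of 12 above 0. The chemokine and adhesion genes Ccl2, Ccl5, Cxcl2, Cxcl10 and Sele, and Il6, were below the floor on both arrays.

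Related genes outside the symbol rule were mostly dim too. Of 7, 3 were measured and 0 passed 2-fold, beside 3.14% of all measured genes. Cd40lg, the CD40 ligand gene, read 199 with estradiol and 127 untreated (0.65), Relt read 758 with estradiol and 953 untreated (-0.33), and Eda2r read 239 with estradiol and 192 untreated (0.31). Eda, Edar, Ngfr and Edaradd were below the floor.

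**Figure D4:**
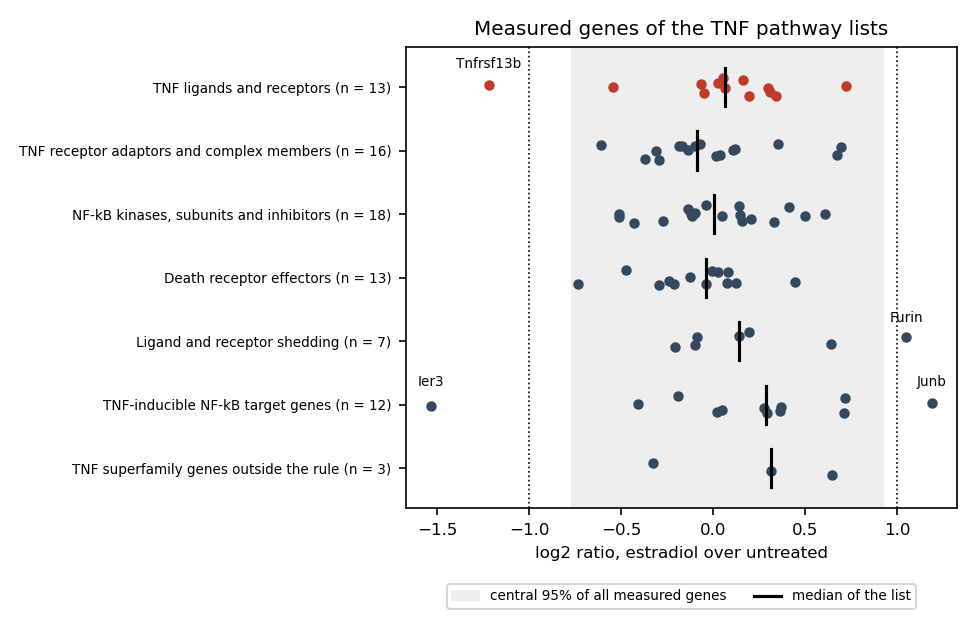
Log2 ratio of estradiol over untreated for the measured genes of the family (red) and of 6 pathway lists (blue), with each list's median as a black bar. The grey band is the central 95% of all measured genes, from -0.77 to 0.93. Tnfrsf13b, Furin, Ier3 and Junb lie past the dotted 2-fold lines.

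Facts of the arrays as a whole set the frame for these values. At or above the floor were 50.9% of 45037 probe sets with estradiol and 49.2% untreated, and the number of arrays limits precision. Over all genes 209 were higher and 113 lower by 2-fold, which became 160 and 161 under a common median, a scaling that shifts the median of all genes to -0.11. All 10 erythroid progenitor markers were measured and 0 passed 2-fold, beside 3.14% of all measured genes, with 4 above 0 and 6 below. Their log2 ratios ran between -0.56 (Tal1) and 0.70 (Lmo2), with Klf1 at 0.62, Tfrc at 0.13 and Kit at -0.16. Gata1 read 1191 with estradiol and 1264 untreated, which does not check the labels, since it is not known here whether this probe set reads the fusion. Of 8 mast cell markers 4 were measured and 3 passed 2-fold, beside 3.14% of all measured genes. The 3 went in both directions, with Tpsab1 higher (log2 ratio 4.61) and Cpa3 (-2.53) and Ms4a2 (-1.40) lower. Cma1 was measured at 0.19. Hdc and Tpsb2 had upward bounds of 0.67 and 0.08, Fcer1a had a downward bound of -0.60, and Mcpt4 was below the floor. The summed signal of the 8 mast cell markers was 5873 with estradiol and 9236 untreated. The part of this signal in the values of the family was not tested. Of 10 T and NK cell markers only Cd8a was measured (log2 ratio -0.03), and of 9 macrophage, monocyte and dendritic cell markers Csf1r, Adgre1 and Cd68 were (0.22, 0.25 and -0.38).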

How the data were processed

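Biotin-labelled total RNA of 2 samples was measured on 1 array each, per the labels. The deposited values were linear signal intensities for 45101 probe sets, made by the authors with Affymetrix GCOS per the submitters' processing notes. The GCOS version was not given in the sources used here. Neither detection calls nor probe-level data were used here. The trimmed mean (2% from each end) of the deposited signal was 500.0 on both arrays.

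Signals were rescaled to 1 trimmed mean over probe sets that were not controls (factors 1.00006 for estradiol and 0.999941 untreated). Probe sets were named through the platform annotation: 34945 had 1 gene symbol, 932 several and 9160 none. A floor at the 50th percentile was set, and log2 ratios of estradiol over untreated were formed as measured values or, where 1 array was below the floor, as bounds. Nothing was tested, since each group held 1 array. The family is described member by member, and pathway genes past 2-fold, the 3 with the largest ratio and the one with the highest signal are named per list. The members and lists were chosen with earlier results of these data known. The steps were tested on simulated data, with changes planted only in genes with a mean signal of at least 190.4. The noise set there was the SD over all genes, 0.25, so the test does not cover the dimmer members of the family. Alternatives covered scaling (loess with a span of 0.3 among them), a floor at the 30th or the 70th percentile, no floor but 16 added, probe set choice, and thresholds of 1.5-fold and 3-fold. Python 3.11.15 was run with statsmodels 0.14.6, pandas 2.3.3, matplotlib 3.10.9 and numpy 2.4.6.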

Additional observations from a re-analysis of the deposited data

How the results depend on the processing

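Tnfrsf13b was the only family gene at least 2-fold lower under every scaling and probe set choice tried and with the floor at the 30th percentile. It has 1 probe set, so the probe set choices could not change its own ratio. With a floor at the 70th percentile 1 family gene was measured and 0 were lower, and at the 3-fold threshold 0 were lower; with no floor 2 were lower, the other being Cd27. The count of higher family genes was 1 with the floor at the 30th percentile and with no floor (Tnfrsf11a both times) and 1 at the 1.5-fold threshold (Tnfrsf22), against 0 otherwise. Family probe sets past 2-fold numbered 3 with the floor at the 30th percentile, 0 at the 70th, 4 with no floor, 2 at 1.5-fold and 0 at 3-fold, against 1 in the reported setting. At the 1.5-fold threshold 3 of 16 adaptor genes, 1 of 18 NF-κB genes and 1 of 13 death effectors passed. So did 2 of 7 shedding genes, 4 of 12 TNF-inducible genes and 1 of 3 related genes. Of all 10240 measured genes, 728 were higher and 497 lower at that threshold. With no floor 1 of 20 adaptor genes (Traf1) and 4 of 21 TNF-inducible genes passed 2-fold, beside 679 higher and 512 lower of 18193 genes. Shedding genes past 2-fold numbered 0 under a common median, and TNF-inducible genes past 2-fold 0 with the floor at the 70th percentile. In both lists 0 genes passed the 3-fold threshold. Fewer genes pass at a stricter threshold or floor by construction; other causes were not tested. Of the 106 values of these counts and of the family median, 83 stayed within 1.5-fold or 1 SD of the reported value. For 17 named family genes and 9 alternatives, 137 of 153 trials gave a ratio, which stayed within 1 SD in 132. The other 16 gave none, 13 of them at the 70th percentile floor and 3 being Fasl under a common median, quantile normalization and loess. Part of the agreement within 1 SD was fixed in advance. The deposited signals were already on nearly 1 scale, so using them could barely move a ratio or a count. No family gene had more than 1 probe set measured, and the probe set choices left every ratio unchanged. A lower floor cannot change the ratio of a gene already measured. Tnfrsf19, Tnfrsf1b and Tnfrsf21, all near 0, changed sign under 3 scalings. All genes past the threshold of each setting numbered 439 and 288 (higher and lower) of 13461 measured with the floor at the 30th percentile. At the 70th percentile they numbered 130 and 65 of 7122, and with no floor 679 and 512 of 18193. Of the 10240 genes measured at the reported floor, 728 and 497 passed 1.5-fold and 49 and 21 passed 3-fold. No paired analysis was possible because each group held 1 array. No array could be left out for the same reason.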
